A study of Mus musculus with 46 samples.

Results

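The comparison set the 5 liver arrays taken 4 d after carbon tetrachloride (CCl4) against the 5 taken at 1 d, so it used 10 of the 46 arrays of the series, chosen by their titles. The 5 control arrays served to tell a return to the untreated level from a change that was new at 4 d. All 3 groups were livers of male C57BL/6N mice aged 8 to 10 weeks on a standard diet. The 4 d and 1 d mice had each been given CCl4 once by the intraperitoneal route, at 1.6 g per kg in olive oil. Control mice had received nothing, so a comparison with control also carries any effect of injection and oil. Both the 4 d and the 1 d mice were injected, and no group received oil alone. An injection or oil effect that changed between 1 d and 4 d therefore cannot be told apart from that of CCl4. Arrays within a group are described as replicates, and since nothing says that each came from its own mouse, p-values here refer to array-to-array spread and that spread may be technical. RNA was measured on Affymetrix mouse arrays of a design that reads many genes with several probe sets; levels are log2 values from robust multi-array averaging (RMA), and each gene was read from 1 probe set.

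CCl4 is turned into a radical by cytochrome P450 enzymes of the hepatocytes around the central vein, chiefly Cyp2e1, and these cells die in a band that is cleared by phagocytes. The surviving hepatocytes pass through stress and acute phase programmes, lower their metabolic genes and divide, while stellate cells, the vitamin A storing cells of the sinusoid, lay down a temporary matrix. Resolution is the stage in which dead tissue is removed, division ends and the hepatocytes regain their metabolic genes.

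The tissue label held on every array. Albumin (Alb) was among the brightest genes, at 14.86, 14.80, 14.80, 14.85 and 14.86 on the 4 d arrays, 14.79, 14.85, 14.78, 14.76 and 14.78 on the 1 d arrays and 14.80, 14.75, 14.70, 14.80 and 14.81 on the control arrays. It differed by 0.04 ± 0.04 (log2, 4 d minus 1 d, ± SE of the limma fit), with an adjusted p of 0.349. The 1 d arrays 1 and 2 stood apart from the rest of their group, with mean correlations to it of 0.9497 and 0.9621, against 0.974 to 0.977 for the other 1 d arrays, 0.9875 to 0.99 among 4 d arrays and 0.987 to 0.990 among control arrays. The 4 d arrays were also more alike than the 1 d arrays: the median SD over genes was 0.121 at 4 d, against 0.172 at 1 d and 0.114 in control, and 70.9% of genes had the larger SD at 1 d. The interquartile range of an array's values averaged 2.52 ± 0.0258 at 4 d, 2.6 ± 0.0417 at 1 d and 2.5 ± 0.0252 in control (SD, n = 5 each), and was lower at 4 d than at 1 d (exact two-sided permutation p = 0.00794, the smallest that 5 against 5 allows; 0.0238 adjusted over 3 array measures). The other 2 measures, the 3' minus 5' differences of the Gapdh and actin control probe sets, had adjusted exact p of 0.571 and 0.238. In bulk liver, fewer cells of a type and less RNA per cell cannot be told apart, which holds for all results below.

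Promoters of mitotic genes and of endoplasmic reticulum (ER) chaperones are shown first, because the letters of known motifs recur in them. Sequences are from RefSeq on GRCm38.p6, 5' to 3' on the gene's strand, and run from 250 bases before to 50 bases after the start. In the 3 promoters of mitotic genes that were higher at 4 d, capitals mark the cell cycle homology region TTTGAA and the CCAAT box, each read on both strands. TTTGAA lay in 15 of the 19 promoters found for the mitosis list (78.9%) and in 14.6% of the promoters of the 10637 tested genes that had one, and CCAAT in 16 of 19 (84.2%) against 42.0%. In the 2 promoters of ER chaperones, capitals mark the ER stress response element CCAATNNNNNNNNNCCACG, which contains the CCAAT letters. This element, like the motifs that follow, was read on both strands, and in Creld2 its letters lie on the opposite strand. It lay in 7 of 16 chaperone promoters (43.8%) and in 0.169% of those of tested genes. The core TGATGNAA of the amino acid response element lay in 8 of 18 promoters of the integrated stress response list (44.4%) and in 2.9% of those of tested genes, and the sterol element core TCACNCCAC in 1 of 16 cholesterol synthesis promoters (6.25%) and in 1.5% of those of tested genes. A match describes letters and is not a bound site.
Ccnb2 (chr9:70421505-70421804, minus strand): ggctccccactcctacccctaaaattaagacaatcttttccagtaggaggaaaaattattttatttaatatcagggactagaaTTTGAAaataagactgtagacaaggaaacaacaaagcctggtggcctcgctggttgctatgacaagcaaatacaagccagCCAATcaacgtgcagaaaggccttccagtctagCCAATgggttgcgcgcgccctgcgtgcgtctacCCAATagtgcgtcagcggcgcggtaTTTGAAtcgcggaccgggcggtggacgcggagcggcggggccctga
Mki67 (chr7:135716330-135716629, minus strand): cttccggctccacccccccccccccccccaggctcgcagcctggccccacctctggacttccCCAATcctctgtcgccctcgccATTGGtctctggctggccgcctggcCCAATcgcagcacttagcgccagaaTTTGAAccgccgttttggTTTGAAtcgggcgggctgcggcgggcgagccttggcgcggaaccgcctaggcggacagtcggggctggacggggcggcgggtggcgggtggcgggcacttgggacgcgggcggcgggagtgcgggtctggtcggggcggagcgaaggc
Top2a (chr11:99024140-99024439, minus strand): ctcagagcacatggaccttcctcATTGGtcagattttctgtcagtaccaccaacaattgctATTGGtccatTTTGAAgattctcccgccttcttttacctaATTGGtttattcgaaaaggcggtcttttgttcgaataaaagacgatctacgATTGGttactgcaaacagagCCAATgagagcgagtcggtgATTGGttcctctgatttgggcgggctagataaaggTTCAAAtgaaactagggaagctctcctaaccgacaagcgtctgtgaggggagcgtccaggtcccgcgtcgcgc
Hspa5 (chr2:34771840-34772139, plus strand): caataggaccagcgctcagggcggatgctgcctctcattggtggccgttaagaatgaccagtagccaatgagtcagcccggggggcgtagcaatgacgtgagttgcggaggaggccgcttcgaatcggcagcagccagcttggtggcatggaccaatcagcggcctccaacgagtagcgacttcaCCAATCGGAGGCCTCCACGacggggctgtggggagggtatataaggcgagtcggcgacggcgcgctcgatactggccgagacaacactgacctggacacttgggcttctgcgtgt
Creld2 (chr15:88819396-88819695, plus strand): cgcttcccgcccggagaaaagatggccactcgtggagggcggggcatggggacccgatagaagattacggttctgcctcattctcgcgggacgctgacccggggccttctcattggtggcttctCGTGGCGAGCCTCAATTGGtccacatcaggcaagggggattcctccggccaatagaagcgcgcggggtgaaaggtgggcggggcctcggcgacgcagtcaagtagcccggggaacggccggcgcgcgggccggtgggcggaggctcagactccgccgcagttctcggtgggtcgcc

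Between 1 d and 4 d the liver transcriptome moved back towards the untreated state across a very large number of genes. Of 13239 genes tested with limma, 6635 differed between 4 d and 1 d at a Benjamini-Hochberg adjusted p under 0.05 (50.1%), of which 3290 were higher at 4 d (24.9%) and 3345 lower (25.3%). At least 2-fold higher were 521 genes (3.94%), and at least 2-fold lower another 521 (3.94%). On 4262 genes (32.2%) the 4 d arrays did not overlap the 1 d arrays at all. Against control, 6623 genes were called at 1 d (50.0%; 3305 higher, 25.0%, and 3318 lower, 25.1%), and 920 at 4 d (6.95%; 628 higher, 4.74%, and 292 lower, 2.21%). The last counts were unstable: 177 genes were lower than control without 4 d array 1 and 169 without control array 3, array weights gave 2071 calls with 865 lower, and the Benjamini-Yekutieli adjustment gave 410 with 79 lower. At 4 d, 136 genes (1.03%) were both called and at least 2-fold from control, and the 4 d and control arrays did not overlap on 1353 genes (10.2%). The 3 comparisons share arrays, so their counts are not independent of one another. The median standard error of a gene's 4 d minus 1 d difference was 0.0966.

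The control means sorted the 6635 genes into classes. A gene was counted as returned when it was called at 1 d against control, moved the other way from 1 d to 4 d and was not called at 4 d against control; these were 4947 genes (74.6%), 2288 higher and 2659 lower at 4 d than at 1 d. A further 114 had partly returned, since they were still called on the side of control where they stood at 1 d, and 137 had gone past control to its other side. Another 40 had moved further from control, and 323 were new at 4 d, that is called against both 1 d and control but not called at 1 d against control. The remaining 1074 were called against 1 d only. A gene that misses the threshold against control is not thereby shown to equal it. With 1 d arrays 1 and 2 left out, the class past control held 249 genes and the class moving further 24, and with arrays weighted by how well they followed their group, 487 were past control, 308 partly returned, 66 further and 588 new.

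**Figure D1:**
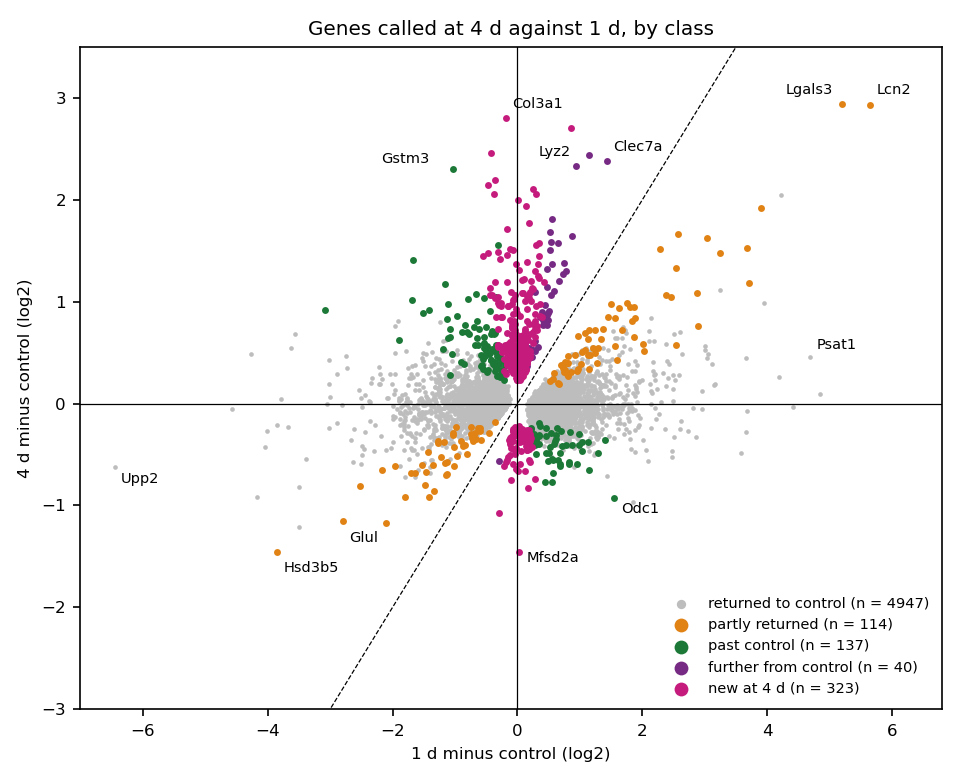
Each point is a gene called at 4 d against 1 d and also, at 1 d or 4 d, against control, placed by its mean at 1 d minus control (x axis, log2) and at 4 d minus control (y axis, log2), coloured by class. Points on the horizontal line are back at the control mean, points on the dashed line have equal 1 d and 4 d means, and the 4947 returned genes form the flat grey band while the 323 new genes form the column near 0 on the x axis.

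How much of the 1 d change was left was measured on the 991 genes (7.49%) that were called and at least 2-fold from control at 1 d. At 4 d the median gene kept 5.14% of its 1 d displacement (quartiles -7.57% to 21.7%), and 697 genes (70.3%) lay within 25% of it from control. That median was 3.35% without 1 d array 2, and 9.55% among genes at least 4-fold from control at 1 d. The median was 5.76% for the 519 genes above control at 1 d and 4.48% for the 472 below it. More than 50% was left on 70 genes, and 77 stood past control by more than 25%. Single 4 d arrays gave medians of 9.99%, 3.69%, -0.459%, 5.17% and 7.92%, a mean of 5.26 ± 4.02% (SD, n = 5). The 1 d arrays carried 124%, 72.2%, 106%, 99.4% and 94.3% of their own group's displacement, so arrays 1 and 2 were the most and the least displaced. Over the same genes the median was 49.4% at 2 d and 5.21% at 6 d. The 4 d livers thus stood close to the 6 d value, and most of the return fell between 1 d and 4 d.

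**Figure D2:**
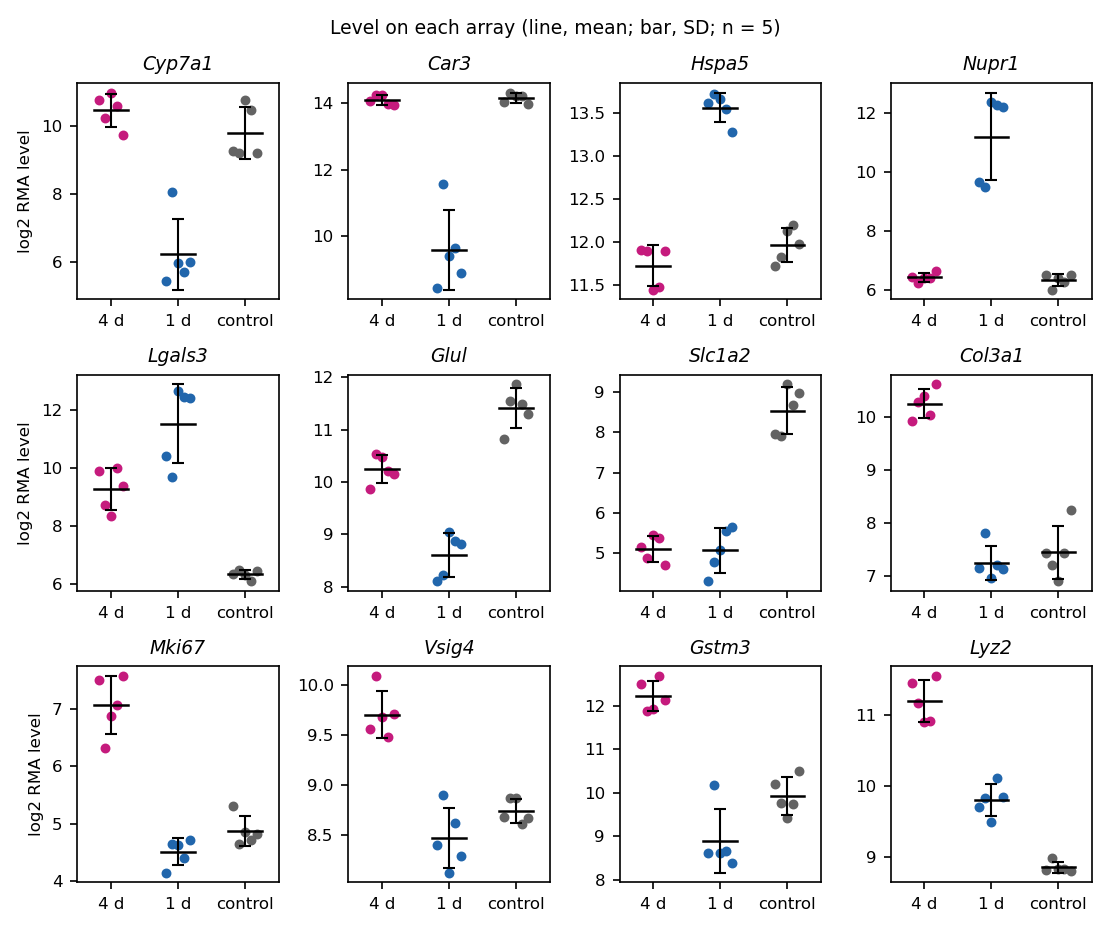
Points are single arrays, with 5 arrays each at 4 d, 1 d and control from left to right, on the log2 RMA scale; lines are means and bars SD. Cyp7a1, Car3, Hspa5 and Nupr1 are back near control at 4 d, Lgals3 and Glul lie between 1 d and control, Slc1a2 at 4 d overlaps 1 d, and Col3a1, Mki67, Vsig4, Gstm3 and Lyz2 stand above both 1 d and control.

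Hepatocyte metabolic genes led the rises. In bile acid synthesis and transport, 19 of 22 tested members were higher at 4 d than at 1 d and none lower, with a list median of 1.14 (log2, 4 d minus 1 d), against 0.03 over all genes, of which 24.9% were higher and 25.3% lower. Cyp7a1, whose hydroxylation of cholesterol limits the rate of the pathway, stood at 10.78, 10.25, 10.99, 10.59 and 9.76 on the 4 d arrays, against 5.45, 8.07, 5.99, 5.70 and 5.99 on the 1 d arrays and 9.29, 9.21, 10.77, 10.49 and 9.23 on the control arrays. All 4 d arrays lay above all 1 d arrays, and the 4 d range overlapped the control range. The difference was 4.24 ± 0.51 (log2 ± SE, adjusted p = 3.25e-09). Cyp8b1, which sets the share of cholic acid, rose by 3.05 ± 0.47 (adjusted p = 6.16e-07), and Abcb11, the bile salt export pump, by 2.20 ± 0.14 (adjusted p = 1.01e-15). The 3 members not called between 4 d and 1 d were Cyp7b1, of the alternative synthesis route, the canalicular export pump Abcc2 and the nuclear receptor Nr0b2, known as SHP, at 0.24, -0.09 and 0.36 (adjusted p = 0.586, 0.723 and 0.333). Against control at 4 d, Cyp7b1 stood at -1.22 (adjusted p = 0.0209), Abcc2 at 0.06 (adjusted p = 0.915) and Nr0b2 at -0.68 (adjusted p = 0.193).

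The largest single rise was Upp2, a uridine phosphorylase of the liver. It stood at 9.85, 10.44, 10.34, 11.25 and 10.78 on the 4 d arrays, against 3.33, 6.83, 3.98, 4.16 and 5.26 on the 1 d arrays and 10.67, 10.62, 11.57, 11.12 and 11.82 on the control arrays. The 1 d arrays spread widely, with array 2 highest, yet none reached the 4 d arrays, and the difference was 5.82 ± 0.53 (adjusted p = 4.51e-12). All 1 d arrays of Upp2 except array 2 lay below 5.56, the median of the table used as the filter on low values. The size of its rise is therefore uncertain. Car3, an abundant hepatocyte carbonic anhydrase, read 14.07, 14.24, 14.26, 13.97 and 13.96 at 4 d, 8.44, 11.57, 9.40, 9.63 and 8.87 at 1 d and 14.04, 14.31, 14.23, 14.22 and 13.98 in control. Its 4 d and control arrays shared one range, and it rose by 4.52 ± 0.39 (adjusted p = 9.26e-13). Here too 1 d array 2 lay nearest to the 4 d level. The other genes among the 10 largest rises were Ces1g, a carboxylesterase, by 3.99 ± 0.22, the succinate receptor Sucnr1 by 3.84 ± 0.39, the methyltransferase Inmt by 3.75 ± 0.27, the major urinary protein Mup10 by 3.64 ± 0.40 and Nrep by 3.62 ± 0.45, with adjusted p from 7.49e-18 for Ces1g to 8.17e-09 for Nrep. Mup10 and Ces1g belong to families of near-identical copies, so their single values are uncertain. Ces1g alone of these 5 had gone past control, by 0.91 ± 0.22 (adjusted p = 0.00509).

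Lipid synthesis genes were raised together. Of 19 fatty acid synthesis genes 16 were higher and none lower (median 1.37), and of 20 cholesterol synthesis genes 18 were higher and none lower (median 1.01). Fasn, the fatty acid synthase, stood at 11.51, 10.40, 10.38, 10.40 and 10.38 on the 4 d arrays, against 8.12, 8.51, 8.16, 8.08 and 8.25 on the 1 d arrays and 9.54, 10.03, 9.44, 10.13 and 9.52 on the control arrays. The 4 d arrays lay above every 1 d array and also above every control array, array 1 by the widest margin. Fasn rose by 2.39 ± 0.26 over 1 d (adjusted p = 2.3e-10) and stood 0.89 ± 0.26 above control (adjusted p = 0.0243). The related enzymes Acly and Acaca, which supply acetyl-CoA and malonyl-CoA, were likewise past control, by 0.83 and 0.70; over 1 d they rose by 1.97 and 1.60, or by 1.16 and 0.93 with their probe sets averaged. Thrsp, a lipogenic regulator, rose by 4.75 ± 0.57 and Acss2, an acetyl-CoA synthetase, by 4.18 ± 0.33 (adjusted p = 3.02e-09 and 1.11e-13); with all probe sets of the gene averaged, Acss2 rose by 2.77. Hmgcs1, an early enzyme of cholesterol synthesis, rose by 1.72 ± 0.29 (adjusted p = 2.88e-06) and did not differ from control past the threshold (adjusted p = 0.513). At 6 d the median of the fatty acid list lay at -0.501 against control, after 0.257 at 4 d.

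Amino acid catabolism had 17 of 19 members higher and none lower, with all 17 in the returned class (median 1.43). Otc, of the urea cycle, rose by 2.10 ± 0.17 (adjusted p = 1.44e-13), and Hal, which starts histidine breakdown, by 2.14 ± 0.29 (adjusted p = 4e-08). Pygl, the liver glycogen phosphorylase, rose by 2.25 ± 0.20 and the glucose transporter Slc2a2 by 2.13 ± 0.27 (adjusted p = 1.38e-12 and 1.02e-08), within a glucose list in which 6 of 12 members were higher and none lower. Pck1, the rate-limiting gluconeogenic enzyme, did not rise, at -0.56 between 4 d and 1 d (adjusted p = 0.361) and -1.65 against control (adjusted p = 0.0303). Without 1 d array 1, which read 7.63 where the other 1 d arrays read 11.56 to 12.08, Pck1 was called between 4 d and 1 d at -1.40 (adjusted p = 0.000934). Among complement and coagulation genes 24 of 27 were higher and 1 lower (median 0.67), with factor VII (F7) up by 1.18 ± 0.11 (adjusted p = 1.6e-11). The abundant secreted hepatocyte proteins moved little, 4 of 9 being higher and none lower (median 0.12).

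In drug metabolism 28 of 37 genes were higher at 4 d than at 1 d and 1 lower (median 1.02), but the list's median against control was still -0.29, with 9 members lower than control and 1 higher, against 2.21% and 4.74% of all tested genes. Cyp2e1, which activates CCl4, stood at 13.46, 13.80, 13.78, 13.67 and 13.63 on the 4 d arrays, against 12.07, 11.65, 12.91, 12.69 and 12.65 on the 1 d arrays and 13.81, 14.09, 14.17, 14.09 and 14.06 on the control arrays. The 4 d arrays lay above every 1 d array and just below every control array. Cyp2e1 rose by 1.27 ± 0.27 (adjusted p = 0.000102), and its level against control at 4 d differed by -0.37 ± 0.27 (adjusted p = 0.487). That last difference did not pass the threshold. Cyp1a2 rose by 2.79 ± 0.27 and Cyp2f2, a periportal P450, by 1.80 ± 0.16 (adjusted p = 1.23e-11 and 2.5e-12). Members of the Cyp2c family rose as well, for example Cyp2c50 by 2.70 ± 0.36 (adjusted p = 3.88e-08), and since their sequences are near copies of one another, values of single members are uncertain.

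A smaller set expressed near the central vein was still below control. Glul, the glutamine synthetase of the innermost pericentral hepatocytes, read 9.87, 10.54, 10.48, 10.20 and 10.15 at 4 d, 8.11, 8.22, 9.05, 8.87 and 8.83 at 1 d and 10.83, 11.55, 11.87, 11.50 and 11.29 in control. The 3 groups did not overlap, with 4 d between 1 d and control. It rose by 1.63 ± 0.18 over 1 d (adjusted p = 6.2e-10) and remained -1.16 ± 0.18 from control (adjusted p = 1.53e-05). The glutamate transporter Slc1a2, which the same cells express, stood at 5.15, 4.88, 5.45, 5.38 and 4.70 on the 4 d arrays, against 4.31, 4.78, 5.09, 5.55 and 5.65 on the 1 d arrays and 7.95, 7.92, 9.19, 8.66 and 8.97 on the control arrays. The 4 d arrays lay within the range of the 1 d arrays, well below control, with a difference of 0.03 ± 0.29 between 4 d and 1 d (adjusted p = 0.937) and -3.43 ± 0.29 between 4 d and control (adjusted p = 4.26e-11). All of its 4 d arrays, and the 1 d arrays except the 1 at 5.65, lay below 5.56, the median of the table used as the filter on low values, so 4 d and 1 d could not be resolved there and the difference from control is one to near that level. Oat, ornithine aminotransferase of these cells, was at -0.28 ± 0.25 between 4 d and 1 d (adjusted p = 0.369) and at -1.91 ± 0.25 against control (adjusted p = 7.96e-07). By 6 d the mean levels of Glul, Slc1a2 and Oat were 11.39, 7.93 and 11.32, against control means of 11.41, 8.54 and 11.80. Slc1a2 and Oat were taken from the largest of 85 genes below control at both times, chosen after their values were seen: 237 genes were called at both 1 d and 4 d against control and not called between the 2 times, 152 of them above and 85 below control. Over the whole list of 15 pericentral genes 10 were higher at 4 d than at 1 d, none lower, and 3 stayed below control.

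Male-biased genes of mouse liver depend on the pulses of growth hormone. In the list of these and of growth hormone pathway genes, such as Igf1 and Ghr, 9 of 16 tested members were higher at 4 d than at 1 d and none lower, against 24.9% and 25.3% of all tested genes. At 4 d 5 members were below control and 1 above, against 2.21% and 4.74%. Hsd3b5, a male-specific steroid dehydrogenase, stood at 9.59, 10.89, 10.29, 9.08 and 9.95 on the 4 d arrays, against 5.62, 6.16, 8.29, 9.20 and 8.55 on the 1 d arrays and 11.43, 11.91, 12.003, 11.48 and 10.23 on the control arrays. Its 4 d and 1 d arrays overlapped slightly and 1 d arrays 1 and 2 were the lowest of all. It rose by 2.39 ± 0.42 (adjusted p = 8.06e-06) but by 1.28 without those 2 arrays, and it stood -1.45 ± 0.42 from control (adjusted p = 0.0259). The organic anion uptake transporter Slco1a1 rose by 0.88 ± 0.18 (adjusted p = 7.47e-05), or by 0.57 without the same arrays, and stood -0.92 ± 0.18 from control (adjusted p = 0.000517). Cyp4a12a and Ugt2b38 were below control at both times and not called between them, at 4 d at -1.71 ± 0.28 and -1.84 ± 0.43 against control (adjusted p = 2.83e-05 and 0.0039). Their 6 d means were 10.72 and 9.41, against 10.53 and 8.61 in control.

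The genes that were lower at 4 d were led by stress programmes. In the integrated stress response 15 of 18 members were lower and 1 higher (median -1.48). The higher member, Shmt2, and all of the lower ones except Vldlr were counted as returned. Vldlr was called against 1 d only. Nupr1, a stress-induced chromatin protein and the largest fall of all genes, stood at 6.47, 6.25, 6.42, 6.42 and 6.66 on the 4 d arrays, against 9.66, 9.51, 12.35, 12.28 and 12.20 on the 1 d arrays and 6.51, 6.03, 6.41, 6.30 and 6.53 on the control arrays. Its 4 d and control values were interleaved, and the 1 d arrays lay far above both, arrays 1 and 2 lower than the other 3. The fall was -4.75 ± 0.35 (adjusted p = 1.89e-14). Ddit3, the transcription factor CHOP, fell by 3.01 (SE 0.22, adjusted p = 1.55e-14; 1.70 with its probe sets averaged), and its target Trib3 by 3.01 (SE 0.35, adjusted p = 1.72e-09). Psat1, of serine synthesis, read 4.66, 4.38, 3.98, 4.05 and 4.69 at 4 d, 8.57, 7.56, 9.30, 8.86 and 8.64 at 1 d and 4.04, 3.79, 4.18, 3.91 and 3.60 in control. Its 4 d arrays lay in or just above the control range, and it fell by 4.23 (SE 0.28, adjusted p = 1.17e-15). All Psat1 arrays at 4 d and in control lay below 5.56, the filter on low values. Its fall is thus one to below that level, where 4 d and control are poorly resolved. Others among the 10 largest falls were Sprr1a, a cornified envelope protein, at -4.44, Ifrd1, a transcriptional coregulator, at -4.07, Pwwp3b at -3.75 and Igfbp1, a stress-induced binding protein of insulin-like growth factors, at -3.19, with adjusted p of 8.42e-10, 1.33e-12, 2.82e-09 and 1.04e-06.

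ER chaperones fell in 15 of 18 cases and none rose (median -1.04). Hspa5, the chaperone BiP whose promoter is printed above, stood at 11.90, 11.89, 11.44, 11.47 and 11.89 on the 4 d arrays, against 13.62, 13.72, 13.66, 13.55 and 13.28 on the 1 d arrays and 11.72, 11.82, 12.13, 12.19 and 11.97 on the control arrays. All 4 d arrays lay more than 1 log2 unit under the 1 d arrays and spanned a range that overlapped control. The difference was -1.85 ± 0.22 (adjusted p = 2.3e-09). Creld2, a secreted ER protein with the letters of the ER stress response element on the opposite strand of its promoter, fell by 2.27 (SE 0.33, adjusted p = 1.94e-07). Among heat shock proteins 12 of 14 fell and none rose (median -1.22), with Hspb1 at -3.94 ± 0.43 and Hsph1 at -2.84 ± 0.40 (adjusted p = 4.69e-10 and 1.37e-07). On Hspb1 the 1 d arrays 1 and 2 read 10.35 and 9.24, against 12.86 to 13.31 on the other 1 d arrays.

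Ribosome biogenesis genes, which build ribosomal subunits in the nucleolus, fell in 24 of 26 cases and none rose (median -1.10), and 22 of the 24 were returned. Npm1, nucleophosmin, read 9.94, 10.06, 9.93, 9.90 and 10.13 at 4 d, 11.80, 11.41, 12.26, 12.07 and 11.99 at 1 d and 10.09, 10.04, 10.08, 10.40 and 10.35 in control. Npm1 at 4 d overlapped the lower part of the control range and lay more than 1 log2 unit below the 1 d arrays, for a difference of -1.91 ± 0.13 (adjusted p = 1.8e-15). Gnl3, nucleostemin, went past control: it differed by -1.80 ± 0.19 from 1 d (adjusted p = 1.77e-10) and by -0.65 ± 0.19 from control (adjusted p = 0.0258). Odc1, the first enzyme of polyamine synthesis, stood at 8.68, 9.03, 8.39, 7.72 and 8.61 on the 4 d arrays, against 11.02, 11.16, 11.25, 10.96 and 10.45 on the 1 d arrays and 9.34, 9.14, 9.94, 9.15 and 9.49 on the control arrays. Every 4 d array lay below every control array, and every 1 d array above every control array, with differences of -2.48 ± 0.22 from 1 d and -0.93 ± 0.22 from control (adjusted p = 2.98e-12 and 0.00497). Myc, a transcription factor that drives genes of this kind, differed by -1.49 ± 0.32 from 1 d (adjusted p = 0.00013) and did not pass the threshold against control (adjusted p = 0.294).

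The oxidative stress list was split, with 6 of 22 Nrf2 targets higher at 4 d and 8 lower, against 24.9% and 25.3% of all tested genes. Srxn1, a sulfiredoxin, fell by 3.21 (SE 0.34, adjusted p = 2.38e-10; 2.11 with its probe sets averaged), while the glutathione transferase Gstm3 stood at 12.51, 11.90, 11.92, 12.70 and 12.14 on the 4 d arrays, against 8.62, 10.19, 8.61, 8.67 and 8.39 on the 1 d arrays and 10.21, 9.76, 9.42, 9.73 and 10.51 on the control arrays. Every Gstm3 array at 4 d lay above every array of the other groups. It rose by 3.34 ± 0.26 over 1 d (adjusted p = 6.91e-14) and stood 2.31 ± 0.26 above control (adjusted p = 2.95e-08), the largest excess in the class past control. Its relative Gstm2 was 1.18 ± 0.17 above control (adjusted p = 4.18e-06); members of this family are near copies, and single values are uncertain. By 6 d the Gstm3 mean was 9.40, against 9.93 in control.

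Acute phase genes had 12 of 24 members lower and 1 higher (median -0.52), with wide spread, against 25.3% and 24.9% of all tested genes. The number lower ran from 10 to 18 when single arrays were left out. Saa1, serum amyloid A, stood at 9.07, 10.56, 9.54, 12.23 and 10.68 on the 4 d arrays, against 10.66, 14.05, 13.86, 14.24 and 14.20 on the 1 d arrays and 12.34, 9.29, 10.55, 8.83 and 10.14 on the control arrays. The groups overlapped, since 1 d array 1 was low and 4 d array 4 and control array 1 were high, and the difference was -2.98 ± 0.70 (adjusted p = 0.000424). Saa1 and Saa2 are near copies and single values are uncertain. Lcn2, the iron-scavenging lipocalin, read 7.72, 8.44, 8.31, 9.05 and 9.18 at 4 d, 8.43, 11.01, 11.88, 12.35 and 12.59 at 1 d and 6.39, 4.51, 5.25, 5.19 and 6.68 in control. Every 4 d array lay above every control array, and below every 1 d array except array 1. It differed by -2.71 ± 0.80 from 1 d (adjusted p = 0.00452) and by 2.94 ± 0.80 from control (adjusted p = 0.0157).

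Annexins, S100 proteins and cytoskeletal genes held the most partly returned genes of any list, 7 of 18. At 4 d 15 of the 18 were lower than at 1 d and 1 higher (median -1.13). Against control 10 remained above (4.74% of all tested genes were), the 7 partly returned among them, and none was below. The list median against control was 0.74. Anxa2, a membrane-binding annexin, stood at 8.96, 8.20, 8.13, 8.41 and 9.04 on the 4 d arrays, against 11.10, 10.35, 11.60, 11.32 and 11.05 on the 1 d arrays and 7.51, 7.36, 7.37, 7.23 and 7.37 on the control arrays. The 3 groups were separate, with 4 d between 1 d and control. Its difference was -2.54 ± 0.22 from 1 d and 1.18 ± 0.22 from control (adjusted p = 1.29e-12 and 0.000242), and the first was -0.87 with its probe sets averaged. S100a6 differed by -2.15 ± 0.48 from 1 d and 1.53 ± 0.48 from control (adjusted p = 0.000225 and 0.0417). The keratins of hepatocytes did return: Krt18 fell by 2.20 (SE 0.24, adjusted p = 5.7e-10) to a level 0.17 ± 0.24 from control (adjusted p = 0.769). Vim, the intermediate filament of mesenchymal cells, was held high, at 2.09 ± 0.29 above control (adjusted p = 1.79e-06) and 0.61 ± 0.29 between 4 d and 1 d (adjusted p = 0.0761), a difference that was called with only the 3 groups fitted (adjusted p = 0.0124) and with quantile normalization (0.043). Other genes held high, chosen like Vim after their values were seen, were the chemokine Ccl6 at 1.91 above control, the hyaluronan receptor Cd44 at 1.31, the endothelial and myeloid receptor Cd93 at 1.35, and Ms4a6b and Ms4a6d, membrane proteins of immune cells, at 1.41 and 1.40. Cd44 was called between 4 d and 1 d with array weights alone, at -0.52 (adjusted p = 0.0321). Ms4a6b was called with array weights at 0.58 (adjusted p = 0.0017), and also with quantile normalization, with only the 3 groups fitted, and without 1 d array 1, 1 d array 2, both of these or 4 d array 1 (adjusted p from 0.00771 to 0.0343).

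**Figure D3:**
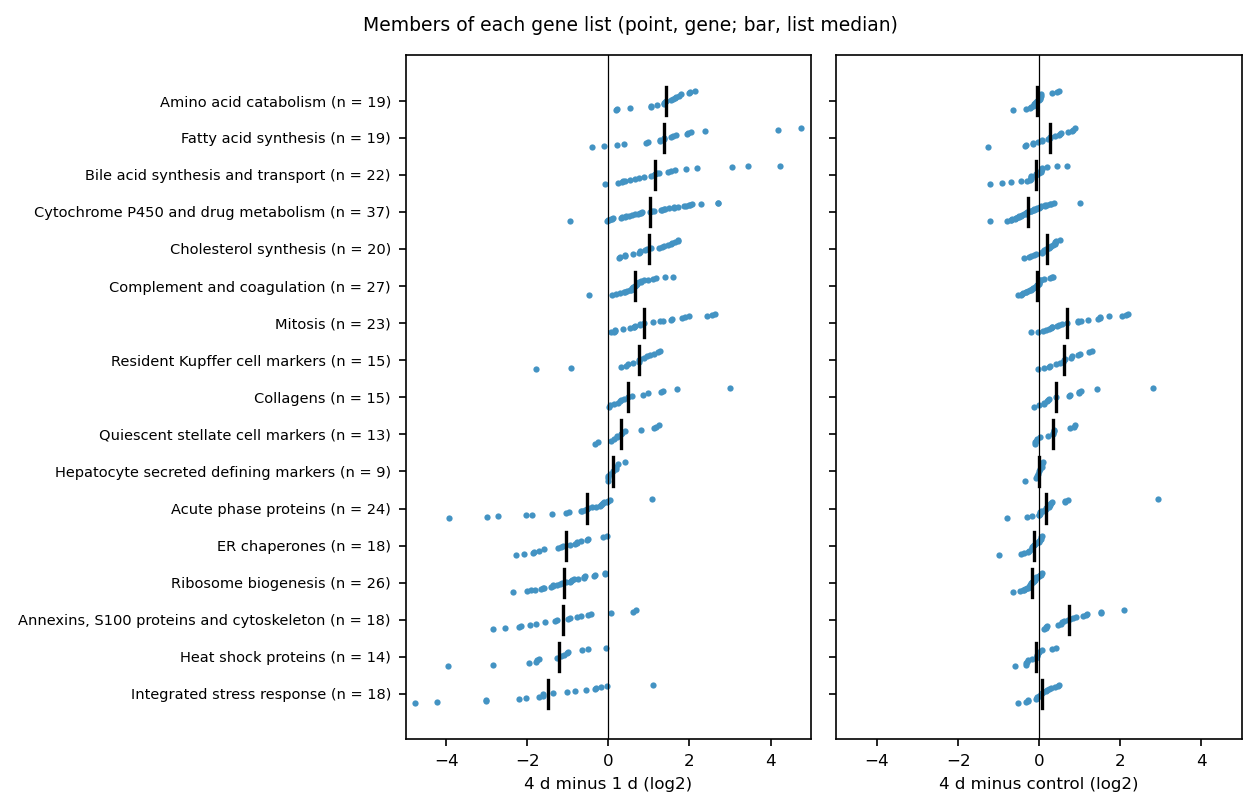
Each point is a tested gene of the list named at the left, placed by its log2 difference at 4 d minus 1 d (left panel) and at 4 d minus control (right panel); black bars are list medians. Metabolic lists lie right of 0 and stress lists left of 0 in the left panel and near 0 in the right panel, while mitosis, resident Kupffer, collagen and annexin lists have medians between 0.41 and 0.74 in the right panel.

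Genes new at 4 d were mostly higher: 250 of the 323 rose and 73 fell, and 52 of the 54 that differed from 1 d by at least 2-fold were rises. The 4 d arrays of 185 of the 323 overlapped neither the 1 d nor the control arrays. The class was chosen by calls on these same arrays, so that count adds no separate support. Over all tested genes, the 4 d arrays were apart from the 1 d arrays on 32.2% and from the control arrays on 10.2%. Of the mitosis list, 20 of 23 tested genes were higher at 4 d than at 1 d and none lower (median 0.88, against 0.03 over all genes), 13 of them new. Mki67, the proliferation marker, stood at 7.50, 6.32, 6.88, 7.07 and 7.58 on the 4 d arrays, against 4.15, 4.65, 4.63, 4.40 and 4.73 on the 1 d arrays and 5.31, 4.65, 4.87, 4.73 and 4.82 on the control arrays. No other array came within 1 log2 unit of the 4 d arrays, and Mki67 rose by 2.56 ± 0.19 over 1 d (adjusted p = 3.41e-14) and 2.19 ± 0.19 over control (adjusted p = 6.01e-11). Its 1 d and control arrays all lay below 5.56, the filter on low values, so the sizes of these rises are uncertain. Cyclin B2 (Ccnb2) rose by 2.62 ± 0.28 and survivin (Birc5) by 2.42 ± 0.27 (adjusted p = 2.75e-10 and 8.09e-10), while topoisomerase II alpha (Top2a), whose promoter is printed above, rose by 1.80 ± 0.19 (adjusted p = 1.21e-10; 0.77 with its probe sets averaged).

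The mitotic peak itself fell outside both times. Against control, the median of the mitosis list stood at -0.267 on the 1 d arrays, 2.387 on those of 2 d, 0.682 at 4 d and -0.075 by 6 d, and Mki67 averaged 9.08 on the 2 d arrays, 7.07 at 4 d and 4.76 by 6 d. The 52 new genes at least 2-fold above 1 d behaved the same way: their median against control stood at -0.157 on the 1 d arrays, 2.136 on those of 2 d, 1.305 at 4 d and -0.002 by 6 d, and 36, 41 and 0 of the 52 were at least 2-fold over control at 2 d, 4 d and 6 d. S phase genes gave no uniform shift, with 5 of 21 higher and 4 lower (median 0.12), among them Rrm2, of ribonucleotide reductase, at 1.62 ± 0.22 and the helicase subunit Mcm6 at -1.02 ± 0.19 (adjusted p = 4.53e-08 and 1.32e-05; -0.61 for Mcm6 with its probe sets averaged). Of 22 G1 regulators 3 were higher and 8 lower. Over all tested genes 24.9% were higher and 25.3% lower. Cyclin D1 (Ccnd1) was not called, at 0.17 ± 0.24 (adjusted p = 0.58), and the inhibitor Cdkn2c rose by 1.74 ± 0.14 over 1 d and 1.07 ± 0.14 over control (adjusted p = 3.82e-13 and 1.08e-06).

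**Figure D4:**
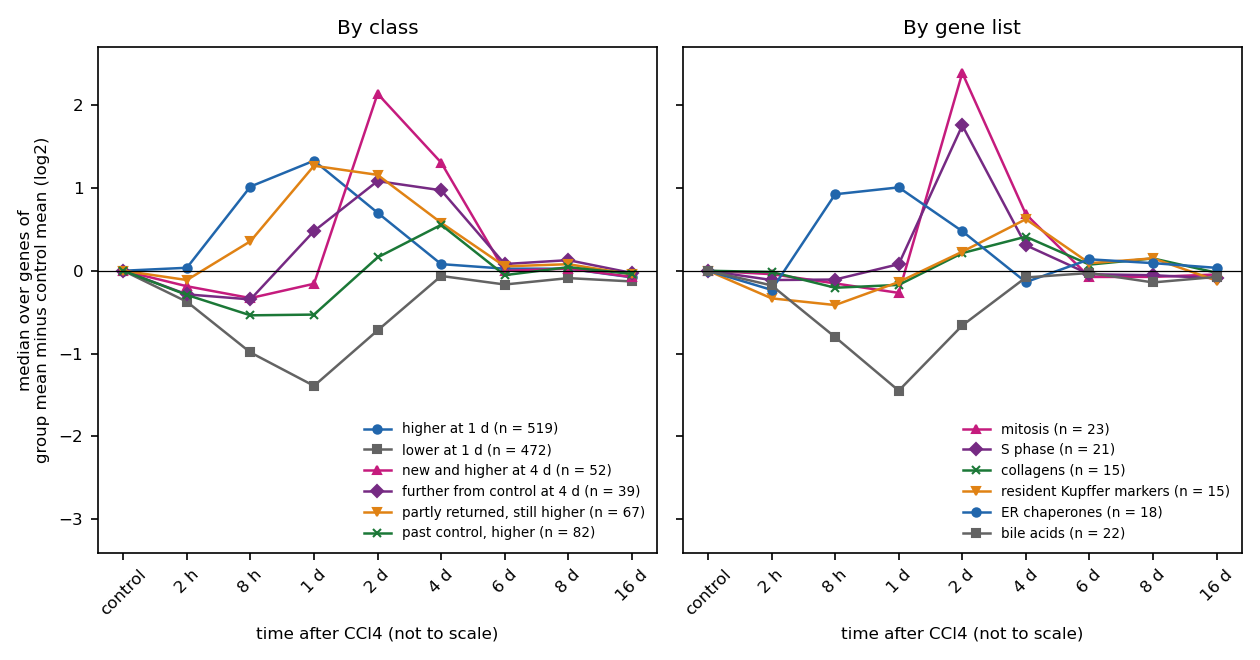
Lines follow the median over genes of the group mean minus the control mean (y axis, log2) from control to 16 d (x axis, not to scale) for classes of genes (left) and gene lists (right). Mitosis and the genes new at 4 d peak at 2 d, collagens and resident Kupffer markers peak at 4 d, and all plotted medians lie within 0.2 of control at 6 d.

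Matrix genes were the second new group. Of 15 collagens 12 were higher at 4 d than at 1 d and none lower (median 0.50), 5 of them new. Of all 15, 8 were above control at 4 d, against 4.74% of all tested genes, and 2 had been above control at 1 d. Col3a1, the fibrillar collagen of early scars, stood at 9.93, 10.28, 10.39, 10.04 and 10.62 on the 4 d arrays, against 7.16, 7.81, 6.96, 7.22 and 7.14 on the 1 d arrays and 7.44, 7.22, 6.91, 7.43 and 8.24 on the control arrays. The lowest 4 d array exceeded the highest array of the other groups by more than 1 log2 unit. Col3a1 rose by 2.99 ± 0.30 over 1 d and 2.80 ± 0.30 over control (adjusted p = 5.6e-11 and 1.24e-08). Col1a2 rose by 1.70 ± 0.19 (adjusted p = 8.79e-10; 1.05 with its probe sets averaged), whereas Col1a1, its partner chain, rose by only 0.40 ± 0.12 over 1 d (adjusted p = 0.00382) on a dim probe set and was not called against control (adjusted p = 0.226). Lumican (Lum), a collagen-binding proteoglycan, rose by 1.60 ± 0.17 and the matricellular protein Smoc2 by 2.90 ± 0.29 (adjusted p = 3.34e-10 and 4.64e-11), and Pcolce, which enhances procollagen processing and was counted as past control, rose by 1.87 ± 0.12 (adjusted p = 6.77e-16). Contractile genes of myofibroblasts did not rise with them, with 2 of 12 higher and 2 lower, against 24.9% and 25.3% of all tested genes. Acta2, their smooth muscle actin, was at -0.42 ± 0.19 (adjusted p = 0.0606). Its mean was 8.72 at 2 d, against 6.77 at 4 d, 7.19 at 1 d and 6.63 in control. Timp1, the protease inhibitor, was at -0.38 ± 0.18 (adjusted p = 0.0831). Both were called lower at 4 d with only the 3 groups fitted and with array weights.

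Markers of quiescent stellate cells were also more often higher, 8 of 13 being higher and 2 lower (median 0.32), against 24.9% and 25.3% of all tested genes. Of all 13, 5 were counted as returned and 3 were above control at 4 d (4.74% of all tested genes were above it). Lrat, which esterifies their retinol, read 7.91, 8.59, 8.31, 8.14 and 8.51 at 4 d, 7.25, 7.35, 6.64, 7.22 and 7.07 at 1 d and 7.27, 7.53, 7.53, 7.57 and 7.31 in control. Every 4 d array lay above every other array, and Lrat rose by 1.19 ± 0.19 over 1 d and 0.85 ± 0.19 over control (adjusted p = 1.97e-06 and 0.00287). Reelin (Reln) was also above control, by 0.75 ± 0.12 (adjusted p = 3.26e-05); over 1 d it rose by 1.25, or 0.67 with its probe sets averaged. Which cells carried the matrix genes was not tested.

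Macrophage genes were divided. Resident Kupffer cell markers were higher at 4 d than at 1 d in 13 of 15 cases and lower in 2 (median 0.76). Of these markers of Kupffer cells, 7 were new and 8 above control (4.74% of all tested genes were above control). Vsig4, a complement receptor of these cells, stood at 9.56, 10.09, 9.68, 9.48 and 9.71 on the 4 d arrays, against 8.40, 8.90, 8.13, 8.62 and 8.30 on the 1 d arrays and 8.68, 8.87, 8.87, 8.61 and 8.68 on the control arrays. All 4 d arrays were above all others, and the rise was 1.23 ± 0.19 over 1 d and 0.96 ± 0.19 over control (adjusted p = 1.04e-06 and 0.000734). C1qb, of the first complement component, rose by 1.12 ± 0.19 (adjusted p = 2.74e-06), and Clec4f, a lectin of Kupffer cells, by 1.29 ± 0.14 over 1 d and 0.64 ± 0.14 over control (adjusted p = 8.31e-10 and 0.00251). The scavenger receptor Marco went the other way, at -1.79 ± 0.39 (adjusted p = 0.000176). Against control, the list's median stood at -0.136 on the 1 d arrays, 0.23 on those of 2 d, 0.622 at 4 d and 0.091 by 6 d.

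Of 17 genes of monocyte-derived and lipid-associated macrophages, 6 were higher and 5 lower at 4 d than at 1 d, against 24.9% and 25.3% of all tested genes. The list median was 0.075, against 0.034 over all genes. At 4 d 10 members were above control and none below, against 4.74% and 2.21% of all tested genes. Lyz2, lysozyme of myeloid cells, read 11.44, 11.16, 10.90, 10.91 and 11.55 at 4 d, 9.71, 9.82, 9.50, 10.12 and 9.85 at 1 d and 8.83, 8.99, 8.84, 8.84 and 8.80 in control. The 3 groups were separate and ordered, with 4 d highest, and Lyz2 was one of the 39 genes that rose further from control, by 1.39 ± 0.33 over 1 d and 2.33 ± 0.33 over control (adjusted p = 0.000494 and 2.41e-06); it is a near copy of Lyz1, so the split between them is uncertain. Clec7a, the beta-glucan receptor, rose by 0.94 ± 0.28 over 1 d (adjusted p = 0.0047), or 0.74 without 1 d arrays 1 and 2 (adjusted p = 0.0547). Ctss, a lysosomal protease of phagocytes, rose by 1.04 ± 0.22 over 1 d and 1.58 ± 0.22 over control (adjusted p = 0.000104 and 1.65e-06). Gpnmb, a lysosomal glycoprotein of phagocytes laden with debris, stood at 8.99, 7.50, 7.01, 8.03 and 8.34 on the 4 d arrays, against 5.23, 5.61, 6.45, 6.49 and 6.85 on the 1 d arrays and 5.08, 5.35, 5.20, 5.47 and 5.24 on the control arrays. All 4 d arrays exceeded all others, and it rose by 1.85 ± 0.37 over 1 d (adjusted p = 4.72e-05; 1.01 with its probe sets averaged). Others of this group had begun to fall: Lgals3, a galectin, read 9.88, 8.74, 8.34, 10.00 and 9.40 at 4 d, 10.43, 9.71, 12.65, 12.46 and 12.41 at 1 d and 6.35, 6.48, 6.31, 6.10 and 6.44 in control. Its 4 d and 1 d arrays overlapped through 1 d array 2, and both groups lay far above control. Lgals3 differed by -2.26 ± 0.49 from 1 d and by 2.94 ± 0.49 from control (adjusted p = 0.000166 and 4.25e-05). Mmp12, macrophage elastase, differed by -1.76 ± 0.41 from 1 d (adjusted p = 0.000423), and Chil3, a chitinase-like protein, by -2.96 ± 0.32 (adjusted p = 3.02e-10). Trem2 was at -0.11 ± 0.08 (adjusted p = 0.259) on its brighter probe set, but its most variable probe set gave 0.45 (adjusted p = 0.000642), so its direction depends on the probe set.

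Counts over other cells of the liver are to be read against the 24.9% higher and 25.3% lower of all tested genes. A count near those shares is not a result about the list. Among endothelial markers, 12 of 23 were higher at 4 d than at 1 d and 1 lower (median 0.28). Stab2, the hyaluronan receptor of sinusoids, was at 0.94 ± 0.10 over 1 d and 0.38 ± 0.10 over control (adjusted p = 1.53e-10 and 0.0118). Antigen presentation genes were higher in 7 of 8 cases and none was lower (median 0.40), none being called against control. Neutrophil markers had 4 of 10 higher and 2 lower. The most changed, S100a8, fell by 2.13 (SE 0.49, adjusted p = 0.000342). Chemokines and receptors had 3 of 18 higher and 6 lower, and interferon-induced genes 7 of 23 higher and 5 lower. T and NK cell markers (1 of 8 higher, 1 lower), B and plasma cell markers (2 of 7 higher), cholangiocyte markers (3 of 8 higher, 1 lower), exocrine pancreas markers (1 of 4 higher, 1 lower) and adipose and mesothelial markers (1 of 7 higher, 1 lower) gave no uniform shift, and their part in the results was not tested. Erythroid markers were higher in 2 of 3 cases and lower in none.

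Other regulatory lists gave mixed counts, several of them near the 24.9% higher and 25.3% lower of all tested genes. Such a count is not a result about the list. Circadian clock genes were 3 higher and 4 lower of 16, and the labels give no hour of collection. YAP targets, which report stretch and injury, were 1 higher and 7 lower of 11 (median -0.42), with Ccn2, connective tissue growth factor, at -2.66 ± 0.25 (adjusted p = 7.61e-12). PPAR alpha and fatty acid oxidation genes were 7 higher and 5 lower of 22. Hepatocyte mitogens and their receptors were 4 higher and 4 lower of 21, and hepatocyte transcription factors 7 higher and 2 lower of 17, with Cebpa, of hepatocyte differentiation, at 1.21 ± 0.16 (adjusted p = 2.47e-08). Periportal genes were higher in 12 of 14 cases and lower in none (median 0.87). Metal handling genes were 4 higher and 6 lower of 12, p53 targets 4 higher and 6 lower of 14, lysosomal genes 10 higher and 4 lower of 17, fetal liver genes 2 higher and 1 lower of 8, matrix glycoproteins 8 higher and 2 lower of 19, matrix proteases and inhibitors 4 higher and 5 lower of 16, and female-biased genes 1 higher of 5.

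Falls that were new at 4 d were few and small. Mfsd2a, a transporter of lysophospholipids, stood at 5.92, 6.00, 5.42, 6.51 and 6.55 on the 4 d arrays, against 8.06, 8.19, 7.05, 6.87 and 7.62 on the 1 d arrays and 6.38, 6.62, 7.20, 8.82 and 8.64 on the control arrays. Its 4 d arrays lay below all 1 d arrays and overlapped a control group that itself ran from 6.38 to 8.82. The difference was -1.48 ± 0.33 from 1 d and -1.45 ± 0.33 from control (adjusted p = 0.000261 and 0.00293). Tuba4a, a tubulin, was at -1.02 ± 0.14 from 1 d and -0.74 ± 0.14 from control (adjusted p = 4.75e-08 and 0.000214). Klhl2, Pex11a, Smim4 and Coq10b completed the 6 largest new falls, at -0.66, -0.75, -0.67 and -1.08 against control and -0.67, -0.65, -0.78 and -0.79 against 1 d. Without 1 d arrays 1 and 2, Pex11a was not called against 1 d (adjusted p = 0.126). The call of Coq10b against 1 d was lost in most alternatives that left out 1 d or 4 d arrays (adjusted p up to 0.161), with quantile normalization, cyclic loess and only the 3 groups fitted (0.0732, 0.0525 and 0.121), and under the Benjamini-Yekutieli adjustment (0.368).

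The remaining classes held the following largest members. Past control on the higher side, besides those above, were the aldehyde dehydrogenase Aldh1b1, 1.41 ± 0.34 above control and 3.08 ± 0.34 above 1 d, and the selenoprotein Selenoh, 1.04 ± 0.15 above control and 1.39 ± 0.15 above 1 d. On the lower side stood the amino acid transporter Slc38a2, at -0.77 ± 0.17 from control and -1.22 from 1 d (-0.46 with its probe sets averaged), Susd1 at -0.78 ± 0.22, Ubxn2a at -0.68 ± 0.15 and the glycosyltransferase Alg11 at -0.61 ± 0.15. Genes that had partly returned and were still high included the metallothionein Mt2, 1.92 ± 0.57 above control and -1.98 ± 0.57 against 1 d, the apolipoprotein Apoa4, 1.63 ± 0.29 above control and -1.41 ± 0.29 against 1 d, and Cd68, a lysosomal protein of macrophages, 1.66 ± 0.18 above control and -0.90 ± 0.18 against 1 d. Mt2 is a near copy of Mt1 and its value is uncertain. Still low were Etnppl, a phospholyase, at -1.17 ± 0.32 from control, the retinol dehydrogenase Rdh16 at -0.92 ± 0.20 and Cyp2c68 at -0.86 ± 0.19, the last a member of a family of near copies. Against 1 d these 3 were at 0.94 ± 0.32, 0.50 ± 0.20 and 0.48 ± 0.19, calls that were all lost without 1 d array 1 (adjusted p = 0.0993, 0.0655 and 0.146), and the most variable probe set of Etnppl gave -0.13. Genes that moved further from control also included Lyz1 at 2.44 ± 0.35 above control, Ifi27l2a, an interferon-induced gene, at 1.81 ± 0.21, Rgs2, a regulator of G protein signalling, at 1.68 ± 0.22, and the fatty acid binding protein Fabp7 at 1.65 ± 0.23; against 1 d they stood at 1.29 ± 0.35, 1.26 ± 0.21, 1.16 ± 0.22 and 0.77 ± 0.23. Stmn1, stathmin of dividing cells, was among the 6 largest new rises, at 2.11 ± 0.23 over control and 1.86 ± 0.23 over 1 d. Afp, the fetal counterpart of albumin, was above control by 1.19 ± 0.32 (adjusted p = 0.0131) and at 0.66 ± 0.32 against 1 d (adjusted p = 0.0804; 0.0437 with only the 3 groups fitted).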

How the data were processed

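The submitters' series table held log2 RMA values of 46 arrays for 45101 probe sets, and these log2 intensities were used as the authors deposited them; per the submitters' processing notes, RMA and oligo 1.52.0 were used, and the annotation of the probe sets was updated here by gene identifier. Of the probe sets, 34945 named exactly 1 gene, and each of 18193 genes was read from the one with the highest mean over all arrays. Testing was limited to the 13239 genes with a level above 5.56 (the median over the table) on 5 or more arrays. Samples were grouped by their titles, and all 46 arrays in 9 groups entered 1 limma fit with empirical Bayes moderation (limma 3.58.1 in R 4.3.3), as contrasts of group means. P-values were adjusted by the Benjamini-Hochberg method over all tested genes, with calls at 0.05, and each ± after a difference is that fit's SE. Array measures were compared by exact two-sided permutation tests. The number of arrays limits the precision. Summaries and plots used Python 3.11.15, pandas 2.3.3, SciPy 1.17.1 and Matplotlib 3.10.9, and the fit was tested on simulated data.

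Genes named were the 10 largest rises and the 10 largest falls among called genes whose 4 d and 1 d arrays did not overlap, the 4 largest called members of each list, the 6 largest of each class by distance from control, and a panel of 20; of the list members, those described are printed. The members and lists were chosen with earlier results of these data known. Cyp7b1, Abcc2, Nr0b2, Pck1, Acly, Acaca and Top2a, and the genes held high or low, were named after their values were seen. The alternatives were 3 scalings, 2 filters, 2 choices of probe set, 3 groups only, trended and robust moderation, array weights, a replicate block, the Benjamini-Yekutieli adjustment and leaving out single arrays or 1 d arrays 1 and 2.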

Additional observations from a re-analysis of the deposited data

Results flagged for a closer look

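On 31 of 375 groups of arrays behind the printed genes, 1 array lay far from the other 4 of its group by Dixon's criterion, which chance meets in about 1 of 20 groups. Of these, 18 fell on the 1 d arrays 1 and 2, the arrays with the lowest correlations to their group.

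The 1 d array 1 was the lowest of its group for Abcb11 (8.15), Acss2 (6.08), Pck1 (7.63), Pygl (8.25), Saa1 (10.66) and Slc2a2 (8.56), and the highest for Alg11 (8.65) and Krt18 (12.79). The 1 d array 2 was the highest for Aldh1b1 (8.28), Ccnd1 (9.21), Cyp7a1 (8.07), Gstm3 (10.19), Pcolce (6.81), Selenoh (7.29), Smoc2 (5.26) and Sucnr1 (6.51), and the lowest for Cd68 (7.59) and Slc38a2 (9.38). For Abcb11, Acss2, Pygl and Slc2a2 array 1 lay further from the 4 d level than the rest of its group, and for Aldh1b1, Cyp7a1, Gstm3, Pcolce, Selenoh, Smoc2 and Sucnr1 array 2 lay nearer to it.

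Among the 4 d arrays, array 1 was the highest for Fasn (11.51) and the lowest for Mt2 (8.25), array 4 the lowest for Krt18 (10.14), and array 5 the highest for Myc (7.43) and Slc38a2 (9.49). Among the control arrays, array 1 was the highest for Ccnb2 (5.80) and the lowest for Slc2a2 (10.63), array 2 the highest for Lyz2 (8.99), array 3 the highest for F7 (9.76) and the lowest for Lyz1 (9.33), array 4 the lowest for Ctss (8.50), and array 5 the highest for Trib3 (7.59) and the lowest for Tuba4a (11.39).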

How the results depend on the processing

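Direction of the named differences called at 4 d against 1 d was kept under every alternative run, except that Etnppl turned to -0.128 with its most variable probe set. Of the differences not called, Trem2 turned to 0.17 with probe sets averaged and 0.447 with the most variable probe set, and Slc1a2 (-0.159 to 0.175 without single arrays), Abcc2, Alb and Cd93 also changed sign. Under the replicate block, 6538 of the 6635 calls at 4 d against 1 d were shared; same-numbered 4 d and 1 d arrays deviated together with correlations of 0.143, 0.107, -0.0304, 0.0643 and -0.0471, so the numbers were not taken to pair the arrays. No scaling moved the median of all genes by more than 0.044, and the share of calls that were higher ran from 42.0% to 53.3%.

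Counts against control were the least stable, and the causes were not tested. With array weights, 2071 genes were called at 4 d against control (1206 higher, 865 lower), with 308 partly returned, 487 past control, 66 further and 588 new (399 higher, 189 lower). The Benjamini-Yekutieli adjustment, stricter by construction, left 2111 rises at 4 d over 1 d, 2032 falls at 1 d from control, 410 calls at 4 d against control (331 higher, 79 lower, 7 of these by 2-fold), 34 partly returned, 32 past control, 6 further and 180 new genes (156 higher, 24 lower). With only the 3 groups fitted, 185 genes were lower at 4 d than control, 6 by 2-fold, and 48 new genes were lower. Without 1 d arrays 1 and 2, 445 were lower than control, 249 past control and 24 further. The remaining share was 9.55% among genes at least 4-fold from control at 1 d. Leaving out single arrays gave 169 to 388 genes lower at 4 d than control, 8 to 24 of them by 2-fold, 70 to 132 partly returned and 47 to 100 new and lower; the low ends came without 4 d array 1 or control array 3. Counts over gene lists moved by more than 1.5 times in 125 instances and stayed within it in 2619. With single arrays left out, calls at 4 d against 1 d ranged from 6007 to 6812 and returned genes from 4271 to 5143. In the same fits new genes ranged from 261 to 375 and the remaining share from 3.35% to 6.55%. Other alternatives went beyond these ranges: the Benjamini-Yekutieli adjustment gave 4665 calls with 3468 returned, and array weights 7497 with 5176 returned.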
